A study of Homo sapiens with 36 samples.

Results

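Granins are acidic proteins packed with peptide hormones into the dense-core secretory granules of neuroendocrine cells, and 9 genes of that system were followed: the granins CHGA, CHGB, SCG2, SCG3 and VGF, the granin-like chaperone SCG5, the prohormone convertases PCSK1 and PCSK2, and the granule calcium sensor SYT9. The 9 were taken by symbol from a table of 26475 genes, and all 9 were found. They were selected with their levels in PANC-1 cells in view, so their PANC-1 differences from control are given as a description, with no test.

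In a neuroendocrine cell the granins gather in the Golgi, help to form the granule, and are cut by the convertases into peptides that are released when calcium rises. PCSK1 and PCSK2 do the cutting, SCG5 escorts PCSK2 and keeps it inactive until it reaches the granule, and SYT9 couples calcium to fusion of the granule with the cell surface. Outside neurons and endocrine cells several of these genes are held low by the repressor REST, and several carry a cAMP response element in the promoter. Carcinomas of the breast, pancreas and colon usually express few of them.

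Poly-A RNA was sequenced from 3 established human lines: MDA-MB-468, from a basal-like breast carcinoma, PANC-1, from a pancreatic duct carcinoma, and WiDr, from an adenocarcinoma of the colon. In each line, cells expressed hairpin 1, hairpin 2 or a non-silencing hairpin (the control) from a pGIPZ lentiviral vector, and WiDr cells expressed guide RNA 1, guide RNA 2 or a non-target guide (the guide control). Each of the 12 groups had 3 libraries, described as biological replicates, and both hairpins and both guides address 1 gene. All groups of a line share that line's background, and the labels do not say whether a group was 1 clone or a pool of infected cells. The submitters' titles and genotype fields name different guides for 4 of the 6 targeting guide libraries, and titles were used. The PANC-1 libraries labelled hairpin 2 keep that wording because a check whose values are not given here did not bear out their label.

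Library totals ran from 28371127 to 49237322 expected counts. Levels are given as CPM, counts scaled to library size by TMM over all 36 libraries. Summed markers were highest in the line they stand for. The 8 basal breast markers reached 3620 to 5650 CPM in MDA-MB-468, against at most 209 CPM in other lines. The 8 pancreatic duct and mesenchymal markers reached 6290 to 10800 CPM in PANC-1, against at most 3500 CPM. The 10 colorectal markers reached 1380 to 2180 CPM in WiDr, against at most 697 CPM. Single markers did not all follow. KRT7 and FN1 were highest in MDA-MB-468, CDX2 in PANC-1 and GABRP in WiDr. CDH17 reached 3.43 CPM in PANC-1, against at most 0.642 CPM in WiDr. GPA33 was at most 0.325 CPM in WiDr. Replicate 2 of PANC-1 hairpin 1 stands apart: 643 genes with at least 8 counts exceeded 5 times the highest of the other 8 PANC-1 libraries, against 0 to 4 such genes in each of those. Leaving it out moved the PANC-1 hairpin 1 mean of CHGA, PCSK1 and PCSK2 by over 1.5 times and that of the other 6 members by at most 1.2 times. Ribosomal RNA took 0.838% to 2.6% of counts in PANC-1 hairpin 1 libraries and 1.22% to 1.8% in those labelled hairpin 2, against 4.61% to 9.6% in PANC-1 controls. It took 1.27% to 2.56% with hairpin 1 and 5.38% to 10.2% with hairpin 2 in WiDr, against 1.59% to 2.71% in their control. Leaving out the ribosomal RNA genes before scaling changed no member's call and no member's direction.

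PANC-1 was the line in which most of the 9 genes were detected at more than a trace. SCG2, VGF, CHGB and SYT9 had their highest level in PANC-1, SCG5 had its highest level in WiDr, and CHGA was near 0 in every line. CHGB had 132 to 250 counts in the 9 PANC-1 libraries, 0 to 4 in MDA-MB-468 and at most 1 in the 18 WiDr libraries. SYT9 had 7 to 385 counts in PANC-1, at most 1 in MDA-MB-468 and at most 2 in WiDr. RNA of a whole culture was measured, so fewer cells with a transcript and less of it per cell cannot be told apart.

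**Figure D1:**
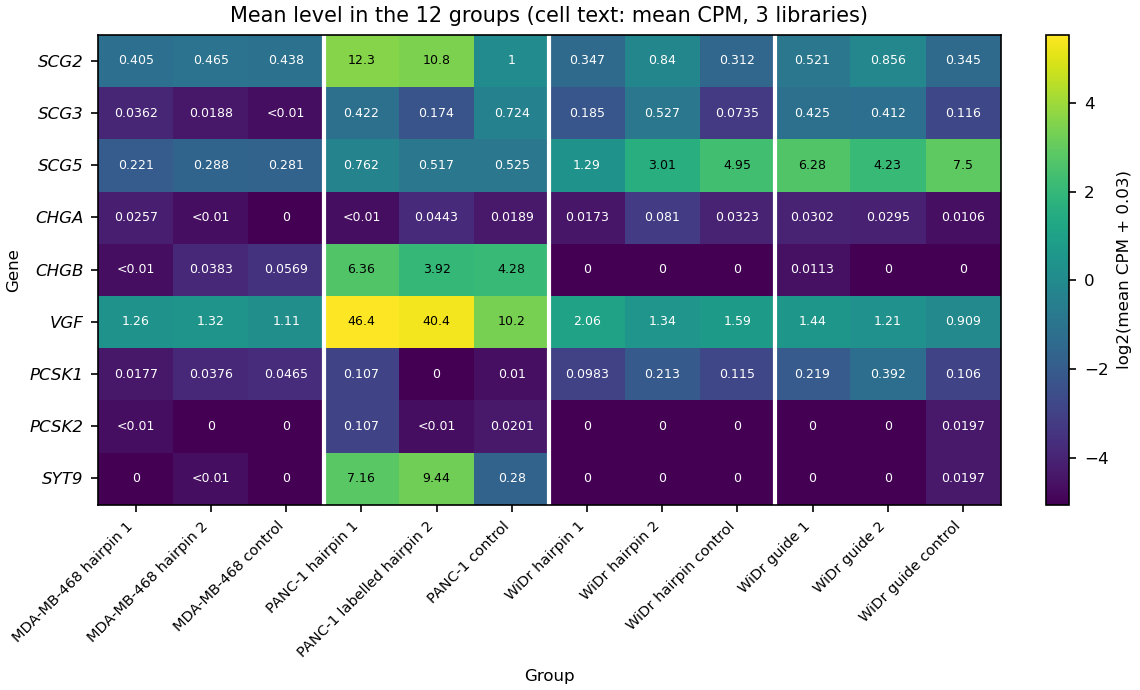
Mean level of the 9 genes (rows) in the 12 groups (columns), 3 libraries each; colour is log2 of mean CPM plus 0.03 and the printed value is the mean CPM. VGF, SCG2, CHGB and SYT9 are brightest in the 3 PANC-1 groups, SCG5 in the 6 WiDr groups.

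SYT9 (chr11:7238778-7469042, GRCh38) showed the widest difference between PANC-1 groups. It had 5.65, 8.08 and 7.76 CPM in PANC-1 hairpin 1 libraries and 9.56, 9.32 and 9.42 CPM in those labelled hairpin 2, against 0.416, 0.214 and 0.211 CPM in controls. Each of the hairpin libraries lay above every control, and the controls held 7 to 16 counts. The fitted log2 difference from control was 4.64 (SE 0.249) with hairpin 1 and 5.04 (SE 0.248) with the label hairpin 2, or 24.9-fold and 32.8-fold. By log2 difference from the top it ranked 29 with hairpin 1 and 16 with the label hairpin 2 among 15128 genes tested. The first value was 4.54 without replicate 2 of hairpin 1.

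SCG2 (chr2:223596940-223602503, minus strand), secretogranin II, is the precursor of the peptide secretoneurin. It had 12.8, 11.5 and 12.6 CPM in PANC-1 hairpin 1 libraries and 9.59, 11.3 and 11.6 CPM in those labelled hairpin 2, against 1.12, 0.978 and 0.902 CPM in controls. These are counts of 386 to 494 in the 6 hairpin libraries and of 30 to 43 in the controls, with no overlap. The fitted difference was 12.3-fold with hairpin 1 and 10.8-fold with the label hairpin 2, and hairpin 1 without its replicate 2 gave a log2 difference of 3.66 in place of 3.62.

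VGF (chr7:101162509-101165593, minus strand), a growth-factor-inducible granin cut into several bioactive peptides, had the highest level of the 9 in PANC-1. It had 51.0, 45.9 and 42.3 CPM in PANC-1 hairpin 1 libraries and 45.6, 42.9 and 32.6 CPM in those labelled hairpin 2, against 9.10, 10.1 and 11.3 CPM in controls. All 6 hairpin libraries lay above all 3 controls. The fitted log2 difference was 2.20 (SE 0.147) with hairpin 1 and 2.00 (SE 0.147) with the label hairpin 2 (4.6-fold and 4-fold). It was 2.20 with hairpin 1 also when replicate 2 was left out.

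CHGB (chr20:5911430-5925361), chromogranin B, had 6.32, 6.71 and 6.05 CPM in PANC-1 hairpin 1 libraries and 3.45, 3.85 and 4.45 CPM in those labelled hairpin 2, against 4.08, 4.43 and 4.33 CPM in controls. The hairpin 1 libraries were the 3 highest, and those labelled hairpin 2 overlapped the controls. The log2 difference from control was 0.58 (SE 0.12) with hairpin 1, 0.53 without its replicate 2, and -0.12 (SE 0.122) with the label hairpin 2.

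SCG3 (chr15:51681353-51721031), secretogranin III, links granin aggregates to the cholesterol-rich granule membrane, and it was lower than control in PANC-1. It had 0.363, 0.563 and 0.341 CPM with hairpin 1 and 0.174, 0.175 and 0.174 CPM with the label hairpin 2, against 0.624, 0.948 and 0.602 CPM in controls. The 3 groups do not overlap in CPM, but they rest on 13 to 21 counts with hairpin 1 and 6 to 7 with the label hairpin 2, against 20 to 31 in controls. The log2 difference was -0.76 (SE 0.3) with hairpin 1, -1.03 without its replicate 2, and -2.02 (SE 0.342) with the label hairpin 2. SCG5 (chr15:32641676-32697098) had 0.958, 0.724 and 0.603 CPM with hairpin 1 and 0.795, 0.204 and 0.552 CPM with the label hairpin 2, against 0.546, 0.459 and 0.571 CPM in PANC-1 controls. Its groups overlap with the label hairpin 2, and the log2 difference was 0.54 (SE 0.407) with hairpin 1, 0.57 without replicate 2, and 0.0025 (SE 0.414) with the label hairpin 2.

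The last 3 genes were too low in PANC-1 for the test. CHGA (chr14:92923080-92935293), chromogranin A, the standard serum and tissue marker of neuroendocrine tumours, had at most 3 counts in each of the 36 libraries. PCSK1 (chr5:96390415-96434143, minus strand) had 1, 9 and 2 counts with hairpin 1 and 0 in all 3 libraries labelled hairpin 2, against 0, 0 and 1 in controls. PCSK2 (chr20:17226107-17484578) had 2, 10 and 0 counts with hairpin 1 and 0, 1 and 0 with the label hairpin 2, against 0, 0 and 2 in controls. The 9 counts of PCSK1 and the 10 of PCSK2 both came from replicate 2 of hairpin 1, the library that stands apart.

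SYT9, SCG2, VGF, CHGB, SCG3 and SCG5 passed the filter on low counts in PANC-1, and since their values there led to their choice, no calls are given for them against control. Of all 15128 genes tested, 30.2% were past an adjusted p of 0.05 with hairpin 1 and 33.4% with the label hairpin 2. These shares depend on single libraries. With hairpin 1 the genes past the threshold numbered 2851 without its replicate 2, in place of 4566, and up to 6797 with another library left out. Their share was 44.3% without control replicate 1 and 30.6% without hairpin 1 replicate 1. It was 21.4% without control replicate 2, 21.3% without control replicate 3 and 21.4% without hairpin 1 replicate 3. With the label hairpin 2 they numbered 3116 without its replicate 1, 3133 without its replicate 2, 7958 without control replicate 1, 3365 without control replicate 2 and 3338 without control replicate 3, in place of 5053. Both arms share their 3 controls.

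**Figure D2:**
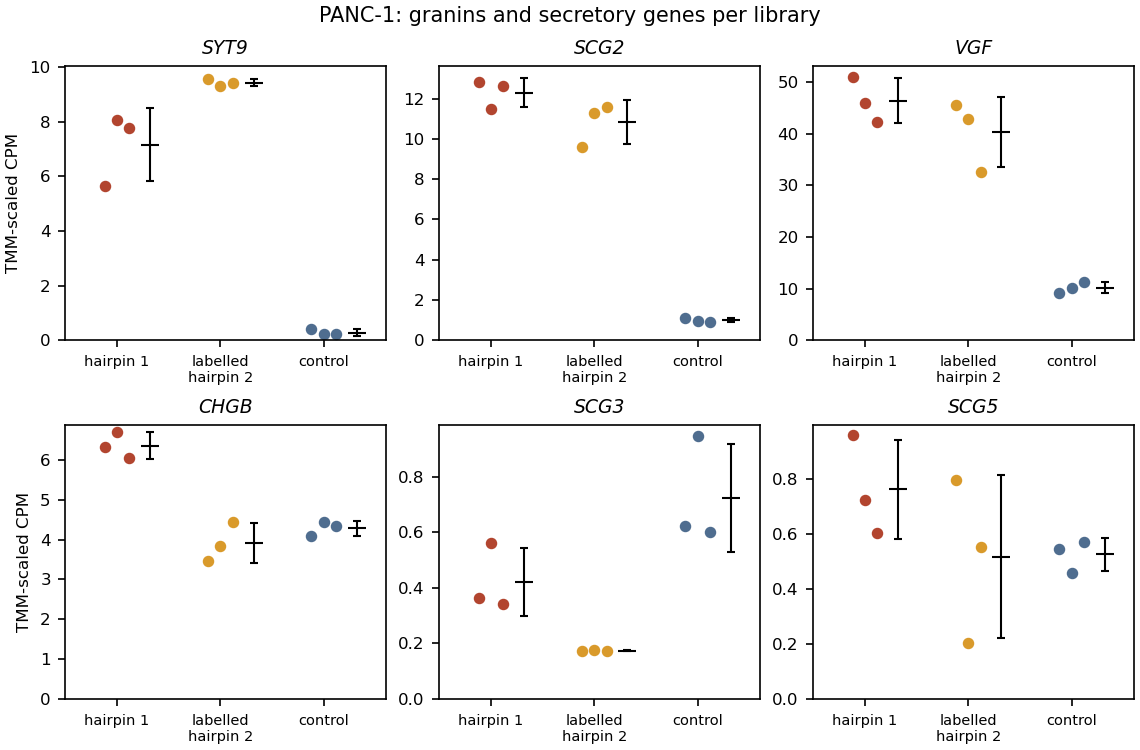
TMM-scaled CPM of the 6 tested genes in each PANC-1 library (points), with mean and SD of 3 libraries to the right of the points; every axis starts at 0. SYT9, SCG2 and VGF are far above control in all 6 hairpin libraries, CHGB is above it with hairpin 1, and SCG3 lies below control.

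The direct comparison of the PANC-1 libraries labelled hairpin 2 with hairpin 1 was tested, and 0 of 6 members passed, beside 0.106% of all genes. At an unadjusted p under 0.05 edgeR had 2 of the 6, and DESeq2 called 1. The share of all genes at an unadjusted p under 0.05 was not taken, here or in later comparisons, so such counts have no background. CHGB had the lowest adjusted p, with a log2 difference of -0.70 (SE 0.121, adjusted p = 0.069), and this was the member DESeq2 called (-0.70, adjusted p = 0.00038). Its libraries do not overlap between these 2 groups. Without replicate 2 of hairpin 1 edgeR gave -0.66 (adjusted p = 0.288). For SCG3 the log2 difference was -1.26 (SE 0.359, adjusted p = 0.273), also with no overlap, and for SYT9 0.40 (SE 0.177, adjusted p = 0.505). For SCG2 the difference was -0.19 (SE 0.111), for VGF -0.20 (SE 0.139) and for SCG5 -0.54 (SE 0.405). The 6 lists of other genes, of cargo, synaptotagmins, exocytosis, hormones, markers and regulators, held 0 calls by edgeR in this comparison, with 1 to 6 genes each at an unadjusted p under 0.05.

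Set on a per-length scale, which allows genes to be compared, VGF led in PANC-1. It had 17.2 CPM per kilobase of exon with hairpin 1 and 14.9 with the label hairpin 2, against 3.76 in controls. SCG2 had 4.52 with hairpin 1 and 3.98 with the label hairpin 2, against 0.368 in controls. SYT9 had 1.51 with hairpin 1 and 2.00 with the label hairpin 2, against 0.0593 in controls. CHGB had 1.40 with hairpin 1 and 0.863 with the label hairpin 2, against 0.944 in controls, so there it stood second to VGF. With hairpins SCG2 stood second. Without replicate 2 the hairpin 1 values were 17.2 for VGF, 4.68 for SCG2, 1.42 for SYT9 and 1.36 for CHGB, in the same order.

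Sequences in front of the start sites were searched, on both strands, for the cAMP response element TGACGTCA, to which factors of the CREB and ATF family bind, and for the left and right parts of the REST element, TTCAGCACC and GGACAGCGC. Promoter windows (RefSeq, GRCh38.p14, 300 bases with 250 before the start site, counted from 1 at the 5′ end) were given for 7 of the 9 genes, not for SCG2 and CHGB. They are shown because 3 members share the response element while their levels differed. In VGF it lies at bases 172 to 179, in PCSK1 at 174 to 181 in 1 of its windows, and in CHGA at 197 to 204. It occurs in 1.85% of 35116 promoters in that table. Capitals mark the motifs. The right part of the REST element lies reversed in VGF at bases 242 to 250. It occurs in 0.581% of promoters.
VGF (chr7:101165570-101165694, minus strand): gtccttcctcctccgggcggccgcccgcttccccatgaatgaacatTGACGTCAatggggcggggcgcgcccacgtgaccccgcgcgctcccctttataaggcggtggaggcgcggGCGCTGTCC
PCSK1 (chr5:96433272-96433371, minus strand): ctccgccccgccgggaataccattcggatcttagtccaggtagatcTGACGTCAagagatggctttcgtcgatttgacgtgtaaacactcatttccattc
CHGA (chr14:92923050-92923149, plus strand): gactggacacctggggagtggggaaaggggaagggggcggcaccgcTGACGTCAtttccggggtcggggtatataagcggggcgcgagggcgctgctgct
SCG3 (chr15:51681511-51681536, plus strand): TTCAGCACCcacagggcGGACAGCGC

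The 26 bases of SCG3 lie just after its start site and hold both parts of the REST element on the same strand. The left part occurs in 0.376% of promoters. The window of SYT9 held none of these letters, its start site lies 13126 bases inside the gene start given above, and whether it is the promoter in use here was not tested. For the PCSK1 window shown, the start site lies 895 bases inside the gene start. Among the 3 genes with the full response element, VGF averaged 46.4 ± 4.35 CPM in PANC-1 hairpin 1 libraries (SD, n = 3), while CHGA averaged 0.00894 ± 0.0155 CPM and PCSK1 0.107 ± 0.118 CPM there. Without replicate 2 CHGA had 0 counts and PCSK1 averaged 0.0392 CPM. A match describes the letters and does not show that a factor binds.

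Across the 12 groups, SCG2 stood at 12.3 ± 0.714 CPM in PANC-1 hairpin 1 and 10.8 ± 1.09 CPM in PANC-1 labelled hairpin 2 (SD, n = 3 each), whose libraries overlap. PANC-1 control followed at 1.00 ± 0.11 CPM. It overlapped WiDr guide 2 at 0.856 ± 0.175 CPM, which overlapped WiDr hairpin 2 at 0.84 ± 0.231 CPM. WiDr guide 1 stood apart below these at 0.521 ± 0.131 CPM, and from there down to 0.312 ± 0.13 CPM in the WiDr hairpin control each group overlapped the next. For VGF the order was 46.4 ± 4.35 and 40.4 ± 6.85 CPM in the PANC-1 hairpin groups, 10.2 ± 1.11 CPM in PANC-1 control and 2.06 ± 0.251 CPM in WiDr hairpin 1. The other 8 groups lay between 0.909 and 1.59 CPM, each overlapping its neighbour.

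By the likeness of log2(CPM + 0.5) over the 12 group means, among 13952 genes with a mean of at least 1 CPM, the 5 genes most like SCG2 were TMEM47 (Pearson r = 0.985), SYT9 (0.982), CA4 (0.976), PTX3 (0.969) and GJA1 (0.967). Those most like SYT9 were TMEM47 (0.991), CA4 (0.987), SCG2 (0.982), ROR2 (0.977) and TRPM8 (0.977). The 12 means are no independent points, since groups share a line and a control. PANC-1 hairpin groups far above all others suffice for a high r. SCG2 averaged 12.3 and 10.8 CPM there, against 1.00 CPM in PANC-1 controls and at most 0.856 CPM in other lines. SYT9 averaged 7.16 and 9.44 CPM there, against 0.28 CPM in PANC-1 controls. Both were selected with PANC-1 levels in view, so their likeness to each other is no independent finding. TMEM47 averaged 9.09 CPM with hairpin 1 and 6.05 CPM with the label hairpin 2, against 0.36 CPM in PANC-1 controls and at most 0.00942 CPM in groups of other lines. CA4, a membrane-bound carbonic anhydrase, averaged 5.56 CPM with hairpin 1 and 6.43 CPM with the label hairpin 2, against 0.783 CPM in PANC-1 controls. Without replicate 2 of hairpin 1 the same 5 genes came first for each, with r of 0.968 to 0.985 for SCG2 and 0.976 to 0.99 for SYT9.

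Other genes of the secretory pathway were followed as lists. The lists were chosen with earlier results of these data known, so their PANC-1 counts against control are a description and no support. Of 40 genes of regulated exocytosis, 31 were tested, and with hairpin 1 14 were past the threshold, all higher, beside 30.2% of all genes. There were 11 when its replicate 2 was left out, all higher, beside 18.7%. With the label hairpin 2 there were 15, all higher, beside 33.4%. The median log2 difference of the 31 was 0.44 with hairpin 1 and 0.45 with the label hairpin 2, against -0.0151 and -0.00474 over all genes. CADPS2, a priming factor of dense-core granules, averaged 6.25 ± 0.817 CPM with hairpin 1 and 7.41 ± 0.907 CPM with the label hairpin 2, against 2.46 ± 0.453 CPM in controls. RIMS3, a protein of the release site, averaged 14 ± 3.03 CPM with hairpin 1 and 18 ± 0.543 CPM with the label hairpin 2, against 6.64 ± 1.42 CPM in controls. RAB27A, a small GTPase that docks granules, averaged 9.45 ± 0.129 CPM with hairpin 1, against 4.08 ± 0.296 CPM in controls. Its relative RAB27B averaged 7.06 CPM with hairpin 1 and 12.9 ± 0.433 CPM with the label hairpin 2, against 4.25 ± 0.482 CPM in controls.

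Of 24 synaptotagmins and relatives other than SYT9, 17 were tested in PANC-1, with 7 higher and 3 lower with hairpin 1 and 6 higher and 3 lower with the label hairpin 2. SYT17 averaged 22.0 ± 0.164 CPM with hairpin 1 and 20.6 ± 1.75 CPM with the label hairpin 2, against 6.33 ± 0.748 CPM in controls (log2 1.80 and 1.71). SYT5, a calcium sensor of granules, averaged 2.84 ± 0.218 CPM with hairpin 1 and 3.52 ± 0.0519 CPM with the label hairpin 2, against 1.17 ± 0.267 CPM in controls (log2 1.29 and 1.60). Without replicate 2 of hairpin 1 the counts with that hairpin were 4 higher and 3 lower.

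Of 23 other cargo and processing genes, 18 were tested: 4 were higher and 0 lower with hairpin 1, and 6 were higher and 2 lower with the label hairpin 2. Without replicate 2 of hairpin 1, 2 were higher with that hairpin. The convertase relative PCSK4 averaged 3.05 ± 0.3 CPM with hairpin 1 and 3.37 ± 0.434 CPM with the label hairpin 2, against 1.5 ± 0.295 CPM in controls. PAM, which amidates peptide ends in the granule, averaged 109 ± 12.1 CPM with hairpin 1, against 80.9 ± 5.97 CPM in controls. Of 55 peptide hormone genes, 17 were tested, with 7 higher and 3 lower with hairpin 1 and 5 higher and 3 lower with the label hairpin 2. STC2 (stanniocalcin 2) averaged 97.1 ± 2.85 CPM with hairpin 1 and 72.3 ± 1.36 CPM with the label hairpin 2, against 27.7 ± 1.1 CPM in controls. INHBA (the activin A subunit) averaged 2.48 ± 0.751 CPM with hairpin 1 and 3.58 ± 0.556 CPM with the label hairpin 2, against 0.704 ± 0.304 CPM in controls.

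Of 28 neuroendocrine markers, 15 were tested in PANC-1, with 7 higher and 2 lower with hairpin 1 and 6 higher and 2 lower with the label hairpin 2. ENO2, the neuron-specific enolase, averaged 102 ± 4.34 CPM with hairpin 1 and 122 ± 5.36 CPM with the label hairpin 2, against 32.1 ± 1.11 CPM in controls. The somatostatin receptor SSTR2 averaged 0.969 ± 0.387 CPM with hairpin 1 and 1.02 ± 0.288 CPM with the label hairpin 2, against 2.78 ± 0.0934 CPM in controls. Of 38 regulators of the neuroendocrine state, 23 were tested, with 6 higher and 2 lower with hairpin 1 and 5 higher and 2 lower with the label hairpin 2. PDX1, a pancreatic homeobox factor, averaged 2.62 ± 0.227 CPM with hairpin 1 and 2.61 ± 0.424 CPM with the label hairpin 2, against 8.33 ± 0.845 CPM in controls. JUN, a subunit of AP-1, averaged 92.9 ± 3.68 CPM with hairpin 1 and 88.7 ± 6.57 CPM with the label hairpin 2, against 35.4 ± 1.7 CPM in controls. REST itself averaged 39.0 ± 0.39 CPM with hairpin 1 and 42.4 ± 3.23 CPM with the label hairpin 2, against 46.3 ± 2.22 CPM in controls, and was not past the threshold with either arm. Without replicate 2 of hairpin 1 the counts were 7 higher and 3 lower for hormones, 6 and 2 for markers and 6 and 2 for regulators. For all lists the shares of all genes past the threshold were 30.2% with hairpin 1, 18.7% without its replicate 2, and 33.4% with the label hairpin 2. With any 1 library left out, the numbers past the threshold with the label hairpin 2 ran from 10 to 20 for exocytosis, 6 to 10 for synaptotagmins, 3 to 11 for cargo, 7 to 8 for hormones, 4 to 10 for markers and 6 to 10 for regulators, beside 20.3% to 51.9% of all genes. With hairpin 1 these numbers ran from 11 to 18 for exocytosis, 7 to 12 for synaptotagmins and 2 to 6 for cargo. For hormones, markers and regulators they ran from 9 to 12, 7 to 11 and 7 to 10, beside 18.7% to 44.3% of all genes. The list genes named here kept their hairpin 1 mean within 1.24 times when replicate 2 was left out.

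Markers of other cell types were also read in the PANC-1 libraries. Of 7 fibroblast markers, 6 exceeded 3 counts in a hairpin 1 library, but 3 without replicate 2, and 3 did in the libraries labelled hairpin 2 and in controls. Their sum was 41.2 to 46.3 CPM with hairpin 1 and 17.3 to 20.5 CPM with the label hairpin 2, against 11.6 to 21.4 CPM in controls. COL1A1 alone ran from 9.6 to 42.1 CPM, and DCN was at most 0.295 CPM. The 6 leukocyte markers summed to 136 to 147 CPM with hairpin 1 and 171 to 182 CPM with the label hairpin 2, against 76.7 to 93.6 CPM in controls, with PTPRC at most 0.161 CPM. The 5 endothelial markers summed to 0.181 to 1.45 CPM with hairpin 1 and 0.0291 to 0.32 CPM with the label hairpin 2, against 0.0301 to 0.0917 CPM in controls. The 1.45 CPM came from replicate 2, and the other hairpin 1 libraries had 0.181 and 0.236 CPM. The part of such cells in the member levels was not tested.

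**Figure D3:**
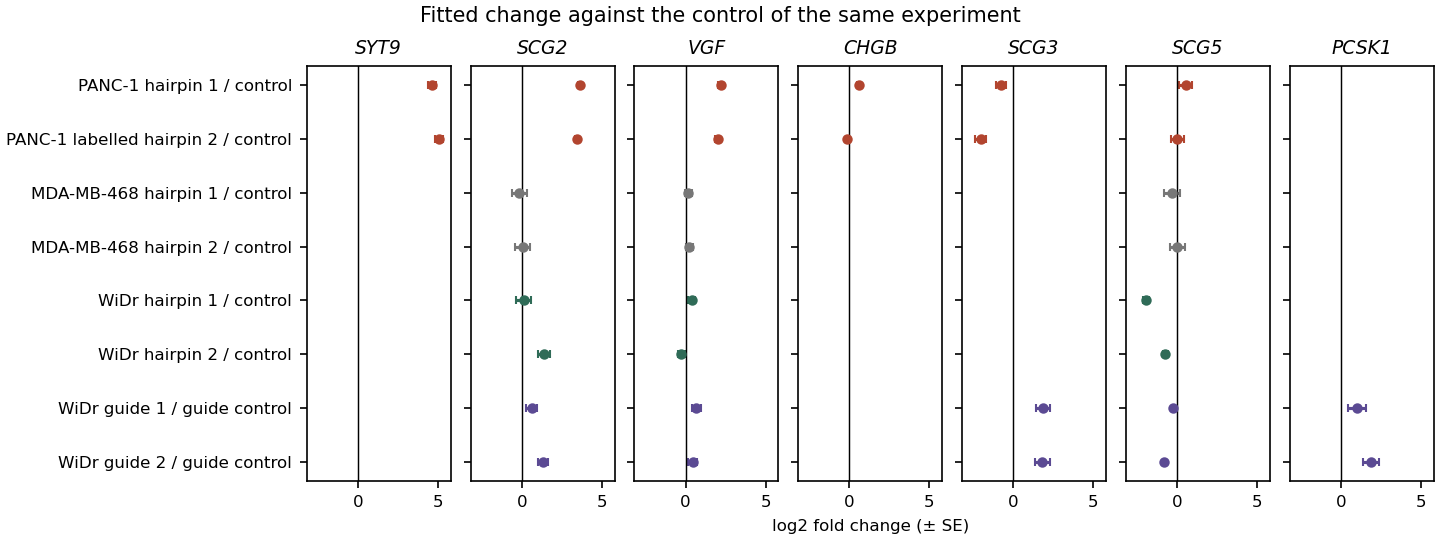
Fitted log2 fold change (horizontal axis, with its standard error) of each tested gene (panels) in the 8 comparisons of a hairpin or guide group with its own control (rows); a missing point means that the gene was too low to test. The points far to the right are SYT9, SCG2 and VGF in PANC-1, and SCG5 lies left of 0 in all 4 WiDr comparisons.

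In MDA-MB-468 the members did not move past the threshold. SCG2, SCG5 and VGF were tested, 0 of 3 passed with hairpin 1, beside 2.27% of all genes, and 0 of 3 with hairpin 2, beside 3.49%. At an unadjusted p under 0.05 edgeR also had 0 with each hairpin, DESeq2 called 0, and the lowest adjusted p under any of the 12 alternatives was 0.378. VGF had 1.38, 1.11 and 1.31 CPM with hairpin 1 and 1.46, 1.15 and 1.36 CPM with hairpin 2, against 0.925, 0.916 and 1.48 CPM in controls, and all 3 groups overlap. SCG2 averaged 0.405 ± 0.107 CPM with hairpin 1 and 0.465 ± 0.277 CPM with hairpin 2, against 0.438 ± 0.116 CPM in controls, with log2 differences of -0.14 (SE 0.462) and 0.059 (SE 0.458). SCG5 averaged 0.221 ± 0.119 CPM with hairpin 1 and 0.288 ± 0.0203 CPM with hairpin 2, against 0.281 ± 0.123 CPM in controls. Hairpin 2 against hairpin 1 gave 0 of 3 by edgeR, 0 at an unadjusted p under 0.05 and 0 by DESeq2, beside 0.437% of all genes. Counts were 3 to 26 per library for SCG2 and SCG5, and their standard errors were 0.458 to 0.493. To pass, a change had to be several times its error. SYTL5, of the synaptotagmin list, only just passed with hairpin 1 at 1.09 (SE 0.23, adjusted p = 0.0491). Changes of SCG2 and SCG5 smaller than that multiple of their errors could not be called.

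The other 6 members were below the filter on low counts in MDA-MB-468. SCG3 had at most 2 counts per library, PCSK1 at most 3, CHGB at most 4, CHGA at most 2, and PCSK2 and SYT9 at most 1. From the lists, the neural adhesion molecule NCAM1 rose to 29.5 ± 1.22 CPM with hairpin 1 and 34.6 ± 5.96 CPM with hairpin 2, against 9.40 ± 1.21 CPM in controls (log2 1.63 and 1.86, adjusted p = 0.00104 and 0.000393). The somatostatin receptor SSTR1 rose to 1.25 ± 0.102 CPM with hairpin 1 and 2.69 ± 0.296 CPM with hairpin 2, against 0.49 ± 0.0952 CPM in controls (log2 1.32 and 2.43, adjusted p = 0.013 and 0.000452). These were the 2 neuroendocrine markers of 14 tested that rose with each hairpin, and 0 fell. REST averaged 47.2 ± 2.19 CPM with hairpin 1 and 47.4 ± 3.92 CPM with hairpin 2, against 49.4 ± 3.67 CPM in controls, and did not pass (adjusted p = 0.816 and 0.839).

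In WiDr, SCG5 fell with both hairpins, and SCG2 rose with hairpin 2. SCG5 had 1.61, 1.31 and 0.934 CPM with hairpin 1 and 2.55, 3.15 and 3.35 CPM with hairpin 2, against 4.51, 4.81 and 5.53 CPM in controls. The 3 groups are fully apart. The log2 change was -1.96 (SE 0.193, adjusted p = 7.01e-07) with hairpin 1, a 3.89-fold fall, and -0.72 (SE 0.173, adjusted p = 0.00299) with hairpin 2, a 1.65-fold fall. Hairpin 2 stood above hairpin 1 by 1.24 (SE 0.2, adjusted p = 0.000163).

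SCG2 had 0.55, 0.23 and 0.26 CPM with WiDr hairpin 1 and 1.11, 0.706 and 0.707 CPM with hairpin 2, against 0.161, 0.384 and 0.39 CPM in controls. Hairpin 2 libraries lie above all others, and hairpin 1 overlaps control. The change was 1.39 (SE 0.398, adjusted p = 0.00991) with hairpin 2 and 0.11 (SE 0.459, adjusted p = 0.864) with hairpin 1, and hairpin 2 exceeded hairpin 1 by 1.28 (SE 0.395, adjusted p = 0.0159). Counts were 5 to 33 per library, and the call against control was lost without control replicate 1 (adjusted p = 0.0547) or hairpin 2 replicate 1 (0.0573). The call against hairpin 1 was lost without hairpin 1 replicate 2 (0.0699) or 3 (0.0574) or hairpin 2 replicate 1 (0.0868).

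VGF had 2.35, 1.87 and 1.97 CPM with WiDr hairpin 1 and 1.41, 1.35 and 1.26 CPM with hairpin 2, against 1.29, 1.77 and 1.72 CPM in controls. It did not pass against control, at 0.37 (SE 0.197, adjusted p = 0.132) and -0.26 (SE 0.204, adjusted p = 0.32). Hairpin 2 stood below hairpin 1, at -0.63 (SE 0.2, adjusted p = 0.0179), a call lost without hairpin 1 replicate 1 (adjusted p = 0.069) or hairpin 2 replicate 2 (0.0507) or 3 (0.051). In all, 1 of 3 tested members passed with hairpin 1 and 2 of 3 with hairpin 2, beside 48% and 44.7% of all genes, and 3 of 3 between the hairpins, beside 42.4%.

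SCG3 was below the low-count filter in the WiDr hairpin libraries, with 6, 7 and 4 counts with hairpin 1 and 17, 16 and 18 with hairpin 2, against 4, 2 and 1 in controls. The hairpin 2 counts are apart from all others. Fitted without the filter, the change was 2.74 (SE 0.612, adjusted p = 0.000357) with hairpin 2 and 1.26 (SE 0.706, adjusted p = 0.185) with hairpin 1. PCSK1 had 2, 2 and 6 counts with hairpin 1 and 4, 8 and 9 with hairpin 2, against 6, 4 and 1 in controls, and without the filter did not pass (adjusted p = 0.94 and 0.44). CHGB and SYT9 had 0 counts in all 9 libraries, and a count of 0 allows up to 3.

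**Figure D4:**
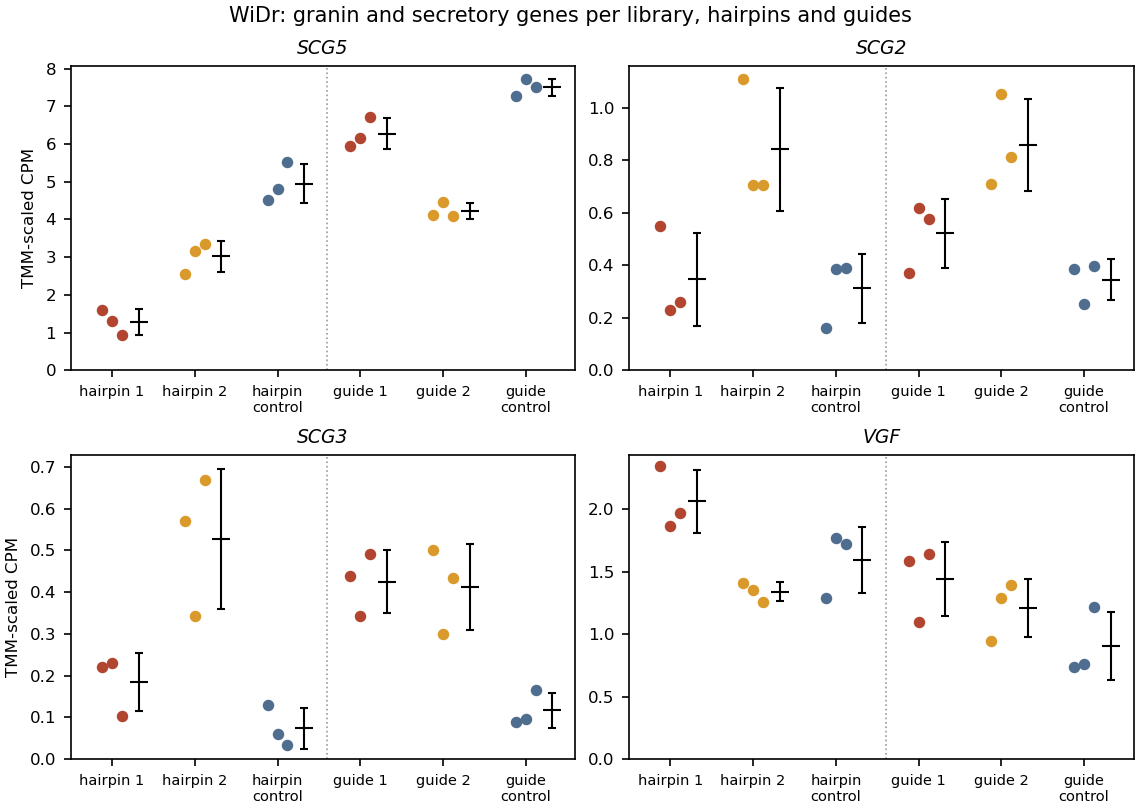
TMM-scaled CPM of SCG5, SCG2, SCG3 and VGF in each WiDr library (points), with mean and SD of 3 libraries beside them; hairpin groups left of the dotted line, guide groups right of it, and every axis starts at 0. SCG5 is lower than its control in all 4 targeting groups and lowest with hairpin 1, and SCG3 is higher with hairpin 2 and both guides.

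With guides in WiDr, SCG3 rose with both and SCG2, PCSK1 and the fall of SCG5 were called with guide 2. SCG3 had 0.439, 0.343 and 0.492 CPM with guide 1 and 0.502, 0.30 and 0.434 CPM with guide 2, against 0.0888, 0.0953 and 0.165 CPM in guide controls. All 6 guide libraries, with 10 to 18 counts, lie above the controls, with 3 to 5. The change was 1.85 (SE 0.444, adjusted p = 0.00299) with guide 1 and 1.82 (SE 0.449, adjusted p = 0.00702) with guide 2, 3.61-fold and 3.54-fold.

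SCG5 had 5.95, 6.15 and 6.73 CPM with guide 1 and 4.13, 4.47 and 4.08 CPM with guide 2, against 7.28, 7.72 and 7.51 CPM in guide controls. Each group is apart from the others. The change was -0.24 (SE 0.097, adjusted p = 0.0563) with guide 1, which did not pass, and -0.81 (SE 0.101, adjusted p = 2.6e-05) with guide 2, a 1.75-fold fall. Guide 2 stood below guide 1, at -0.57 (SE 0.101, adjusted p = 0.000347), a call lost in the fit of all 36 libraries (adjusted p = 0.0931).

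SCG2 had 0.372, 0.618 and 0.574 CPM with guide 1 and 0.708, 1.05 and 0.811 CPM with guide 2, against 0.385, 0.254 and 0.397 CPM in guide controls. Guide 2 libraries lie above the controls and guide 1 overlaps them. The change was 0.63 (SE 0.339, adjusted p = 0.152) with guide 1 and 1.32 (SE 0.323, adjusted p = 0.00673) with guide 2. PCSK1 had 10, 8 and 5 counts with guide 1 and 11, 11 and 18 with guide 2, against 2, 4 and 4 in controls. It rose with guide 2 by 1.89 (SE 0.511, adjusted p = 0.0126), a call lost without guide control replicate 1 (adjusted p = 0.0635), without guide 2 replicate 3 (0.0551) or in a fit of all 36 libraries (0.0804). With guide 1 its change was 1.00 (SE 0.562, adjusted p = 0.167).

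VGF had 1.59, 1.10 and 1.64 CPM with guide 1 and 0.944, 1.29 and 1.39 CPM with guide 2, against 0.74, 0.762 and 1.22 CPM in guide controls, and the groups overlap. It passed with guide 1 at 0.68 (SE 0.264, adjusted p = 0.0491), a call lost without either of guide control replicates 1 and 2 or guide 1 replicates 1 and 3 (adjusted p = 0.121 to 0.171) and with DESeq2 (0.0684). With guide 2 it did not pass, at 0.44 (SE 0.269, adjusted p = 0.249). In all, 2 of 5 tested members passed with guide 1, beside 41.6% of all genes, and 4 of 5 with guide 2, beside 25.5%. Between the guides 1 of 5 passed, beside 34.4%. SCG3, with 3 to 5 counts in guide controls, and PCSK1, with 2 to 4, passed the low-count filter through targeting guide libraries. A gene that low in controls could enter only where it was high, so these numbers of members are no support. When the guide libraries were grouped by the genotype field, which leaves 1 library with guide 2, 0 of 5 passed with guide 2 (SCG3 came nearest, adjusted p = 0.0793), and SCG5 passed with guide 1 (log2 -0.58, adjusted p = 0.0402).

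The differences of these changes between experiments were tested as interactions on the mean of both constructs. Between guides and hairpins in WiDr 1 of 5 members passed, beside 41.6% of all genes. This was SCG5, which changed by -0.24 with guide 1, -0.81 with guide 2, -1.96 with hairpin 1 and -0.72 with hairpin 2. On the mean of both constructs its fall was smaller with guides by 0.82 (SE 0.168, adjusted p = 0.000434). For SCG2 this difference was 0.22 (SE 0.493, adjusted p = 0.755), for SCG3 -0.16 (SE 0.676, adjusted p = 0.895), for VGF 0.50 (SE 0.285, adjusted p = 0.17) and for PCSK1 1.11 (SE 0.787, adjusted p = 0.27). Between WiDr and MDA-MB-468 with hairpins 0 of 4 passed by edgeR, beside 18.2% of all genes past the adjusted threshold. SCG3 was among the 4, though it had at most 2 counts in each MDA-MB-468 library. Its difference was 0.85 (SE 2.38, adjusted p = 0.891), and with that error it could hardly be called. At an unadjusted p under 0.05 there was 1 of the 4. There SCG5 differed by -1.17 (SE 0.416, adjusted p = 0.0638), and DESeq2 and the fit of all 36 libraries called it (adjusted p = 0.028 and 0.0434). PANC-1 was kept out of these tests because its values chose the members.

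SCG5 levels order the WiDr groups without overlap: 7.50 ± 0.217 CPM in the guide control, 6.28 ± 0.403 CPM with guide 1, 4.95 ± 0.523 CPM in the hairpin control, 4.23 ± 0.208 CPM with guide 2, 3.01 ± 0.416 CPM with hairpin 2 and 1.29 ± 0.341 CPM with hairpin 1 (SD, n = 3 each). The hairpin and guide controls, both of them WiDr cells without a targeting construct, lie apart, and that difference was not tested. PANC-1 hairpin 1 followed at 0.762 ± 0.181 CPM, overlapping WiDr hairpin 1, and all MDA-MB-468 groups lay below 0.3 CPM.

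In WiDr, 48% of all genes passed the threshold with hairpin 1, 44.7% with hairpin 2, 41.6% with guide 1 and 25.5% with guide 2, and the counts of the lists stand beside these shares. Of 38 regulators, 25 were tested with hairpins: 15 rose and 3 fell with hairpin 1, and 16 rose and 4 fell with hairpin 2. Their median log2 change was 0.34 with hairpin 1 and 0.35 with hairpin 2, against 0.00152 and -0.00585 over all genes. NEUROG3, the factor that starts endocrine differentiation in gut and pancreas, rose to 0.72 ± 0.145 CPM with hairpin 1 and 2.55 ± 0.0964 CPM with hairpin 2, against 0.186 ± 0.0771 CPM in controls (log2 1.92 and 3.73, adjusted p = 0.000228 and 7.22e-08). PAX4, an endocrine lineage factor, rose to 0.857 ± 0.34 CPM with hairpin 1 and 2.74 ± 0.167 CPM with hairpin 2, against 0.287 ± 0.23 CPM in controls (log2 1.59 and 3.25, adjusted p = 0.00547 and 4.91e-06). RFX6, needed for endocrine cells of gut and islet, rose to 2.66 ± 0.172 CPM with hairpin 2, against 0.562 ± 0.207 CPM in controls (log2 2.24, adjusted p = 4.76e-06). ISL1, a LIM-homeobox factor of islet cells, rose to 7.22 ± 0.386 CPM with hairpin 1, against 3.12 ± 0.175 CPM in controls (log2 1.22, adjusted p = 4.43e-07).

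With guides, 27 regulators were tested, with 8 rises and 4 falls with guide 1 and 12 rises and 5 falls with guide 2. PAX4 rose to 1.76 ± 0.212 CPM with guide 1 and 1.93 ± 0.333 CPM with guide 2, against 0.42 ± 0.159 CPM in guide controls (log2 2.07 and 2.21, adjusted p = 1.11e-05 and 1.83e-05). RFX6 rose to 4.63 ± 0.362 CPM with guide 2, against 2.47 ± 0.326 CPM in guide controls (log2 0.93, adjusted p = 0.000419). REST fell a little with both guides, to 70.2 ± 3.77 CPM with guide 1 and 69.1 ± 4.66 CPM with guide 2, against 80.6 ± 3.12 CPM in guide controls (log2 -0.18 and -0.20, adjusted p = 0.0212 and 0.0215). With hairpin 2 it rose, to 96.5 ± 2.04 CPM, against 84.3 ± 4.89 CPM in hairpin controls (log2 0.19, adjusted p = 0.00926), and with hairpin 1 it did not pass (90.5 ± 4.24 CPM, adjusted p = 0.102). RCOR1, the REST corepressor, rose to 58.0 ± 4.96 CPM with hairpin 1 and 47.8 ± 0.769 CPM with hairpin 2, against 40.5 ± 2.68 CPM in hairpin controls (adjusted p = 6.85e-06 and 0.00866). It fell to 33.5 ± 1.72 CPM with guide 2, against 38.7 ± 2 CPM in guide controls (log2 -0.19, adjusted p = 0.0394), and with guide 1 did not pass (34.4 ± 2 CPM, adjusted p = 0.0629).

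Of 17 tested cargo and processing genes, 2 rose and 11 fell with WiDr hairpin 1, and 5 rose and 5 fell with hairpin 2. CPD, a carboxypeptidase that trims peptides in the Golgi, fell to 211 ± 19.9 CPM with hairpin 1 and 272 ± 0.897 CPM with hairpin 2, against 371 ± 16.3 CPM in controls (adjusted p = 1.75e-08 and 8.92e-06). NUCB2, the precursor of the peptide nesfatin, fell to 13.9 ± 0.445 CPM with hairpin 1, against 31.0 ± 0.889 CPM in controls (log2 -1.16, adjusted p = 9.07e-09). With guide 1 it rose, to 51.0 ± 1.89 CPM, against 18 ± 0.435 CPM in guide controls (log2 1.52, adjusted p = 8.16e-11). With guides, 6 of these 17 rose and 2 fell with guide 1, and 4 rose and 2 fell with guide 2.

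Of the exocytosis genes, 25 were tested with hairpins: 4 rose and 8 fell with hairpin 1, beside 48% of all genes, and 4 rose and 6 fell with hairpin 2, beside 44.7%. With guides 28 were tested, with 13 rises and 5 falls with guide 1 and 7 rises and 5 falls with guide 2. RAB27B fell to 25.2 ± 2.78 CPM with hairpin 1, against 49 ± 4.47 CPM in controls (log2 -0.95, adjusted p = 1.33e-07), and rose to 34.0 ± 2.99 CPM with guide 1 and 19.8 ± 1.81 CPM with guide 2, against 11.2 ± 0.262 CPM in guide controls (log2 1.62 and 0.84, adjusted p = 3.47e-10 and 2.51e-06). The synaptotagmin list had 2 rises and 3 falls of 15 with hairpin 1, 5 and 3 of 15 with hairpin 2, 3 and 2 of 16 with guide 1, and 3 and 4 of 16 with guide 2. SYT13 fell to 9.91 ± 0.813 CPM with hairpin 1 and 15.9 ± 0.916 CPM with hairpin 2, against 22.7 ± 0.643 CPM in controls (adjusted p = 8.41e-09 and 3.47e-05).

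Of 15 tested hormone genes, 1 rose and 7 fell with WiDr hairpin 1 and 2 rose and 4 fell with hairpin 2. Of 13 tested with guides, 6 rose and 2 fell with guide 1 and 5 rose and 0 fell with guide 2. PTHLH, the parathyroid hormone-like peptide, rose to 3.26 ± 0.333 CPM with guide 1 and 1.86 ± 0.349 CPM with guide 2, against 1.30 ± 0.0264 CPM in guide controls (adjusted p = 1.62e-05 and 0.0463). Of 14 tested neuroendocrine markers, 2 rose and 4 fell with hairpin 1 and 4 rose and 3 fell with hairpin 2. Of 15 with guides, 0 rose and 5 fell with guide 1 and 3 rose and 3 fell with guide 2. ENO2 fell to 19.9 ± 0.368 CPM with hairpin 2, against 34.1 ± 1.27 CPM in controls, and to 22.6 ± 0.45 CPM with guide 1 and 20.7 ± 1.66 CPM with guide 2, against 26.2 ± 1.5 CPM in guide controls (adjusted p = 8.67e-08, 0.0366 and 0.0042). In WiDr, LYZ, which that line expresses at 1400 to 2570 CPM, made up nearly all of the leukocyte marker sum, and PTPRC was at most 0.0635 CPM.

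In MDA-MB-468 the remaining lists held few calls. Of 18 tested cargo and processing genes 2 passed with hairpin 2 (PAM up at 0.40, HID1 down at -0.32, adjusted p = 0.0457 and 0.045). Of 17 synaptotagmins 1 rose with hairpin 1 (SYTL5, log2 1.09, adjusted p = 0.0491) and 1 with hairpin 2 (SYT6, log2 0.77, adjusted p = 0.0137). Of 28 exocytosis genes 0 passed with hairpin 1 (4 at an unadjusted p under 0.05) and 1 with hairpin 2 (RAB3A, log2 0.91, adjusted p = 0.0448). Of 12 hormone genes 0 passed with hairpin 1 (3 at an unadjusted p under 0.05) and 2 with hairpin 2 (INHBA up at 1.29, ADM2 down at -0.55, adjusted p = 0.0118 and 0.0131), and of 18 regulators 0 passed with either, while 6 and 3 had an unadjusted p under 0.05.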

How the data were processed

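The authors deposited RSEM expected counts per gene. The submitters' processing notes name Bowtie2 2.1.0, RSEM 1.2.15 and hg38. They leave the annotation and strand setting unstated, and opposite-strand genes overlap SCG3, SCG5, PCSK1, PCSK2 and SYT9, so reads of either strand cannot be told apart there. The members and lists were chosen with earlier results of these data known. Counts were rounded to whole numbers and each experiment (9 libraries) was fitted with edgeR 4.0.16 under R 4.3.3, using its expression filter, TMM factors and the robust quasi-likelihood F test. Benjamini-Hochberg adjustment covered all genes tested, with a threshold of 0.05. Interactions used 18 libraries. A standard error is the size of the log2 change over the root of F. Means are given ± SD of 3 libraries. The code was tested on simulated counts. Alternatives were DESeq2 1.42.0 (Wald test), DESeq2 size factors, no filter, 1 fit of 36 libraries, a replicate block, ribosomal RNA left out, each library left out, and the genotype field. Levels, marker sums, likeness and list counts in PANC-1 with a library left out were added after seeing the data. Besides the members, the rule allowed from each list up to 4 passing genes per comparison, by size of change and with a mean of at least 1 CPM, plus REST and RCOR1. Coordinates and exon lengths are from GENCODE 29. Between replicates, chi-square per degree of freedom was 3.5 to 188, so none was counted as a repeat of another. The targeted gene's level is not reported here.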

Additional observations from a re-analysis of the deposited data

Results flagged for a closer look

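The change of SCG5 differed between the guide and the hairpin experiments in WiDr by 0.8154 on the log2 scale (SE 0.168, edgeR interaction, adjusted p = 0.000434). SCG5 was lower than its own control in 6 of 6 guide libraries and in 6 of 6 hairpin libraries. The log2 change was -0.24 with guide 1, -0.81 with guide 2, -1.96 with hairpin 1 and -0.72 with hairpin 2. The fall with guide 2 was thus no smaller than with hairpin 2, and only the mean of both constructs was smaller with guides. The difference kept its call under the 6 alternatives run, at 0.79 to 0.98 with adjusted p = 3.25e-05 to 0.0486.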

How the results depend on the processing

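Leaving out the ribosomal RNA genes, and DESeq2 size factors in place of TMM, changed no member's call or direction. Genes called were 332, 511 and 64 in MDA-MB-468 (hairpin 1, hairpin 2, hairpin 2 against hairpin 1), and became 805, 1103 and 386 with DESeq2, 900, 1268 and 399 in the fit of 36 libraries, and 85 to 331, 167 to 567 and 11 to 38 with a library left out. In PANC-1, labelled hairpin 2 against hairpin 1 had 16, with DESeq2 256 (members 1), in the fit of 36 libraries 510, and 5 to 9 with a library left out. In the fit of 36 libraries WiDr hairpin 2 had 3964 against 6403, hairpin 2 against hairpin 1 3210 against 6071, guide 1 3620 against 6100, guide 2 1261 against 3731, and guide 2 against guide 1 2802 against 5040 (members 0 against 1). By the genotype field guide 1 had 1353, guide 2 127 (members 0 against 4) and guide 2 against guide 1 0 (members 0). With a library left out guide 2 had 2436 to 4138. Members called were 1 to 3 for WiDr hairpin 2 and 1 to 2 for guide 1, and 1 for guide 1 with DESeq2. For the interaction of WiDr and MDA-MB-468 DESeq2 and the fit of 36 libraries each gave 1 member.

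Signs turned only for differences that had not passed, except SCG5 between the guides. By the genotype field, guide 2 against guide 1 gave SCG2 -0.32, SCG3 0.28, SCG5 0.43, VGF 0.38 and PCSK1 -1.28. With a library left out, ranges in MDA-MB-468 were -0.38 to 0.034 (SCG2) and -0.65 to 0.034 (SCG5) with hairpin 1, -0.41 to 0.42 and -0.29 to 0.25 with hairpin 2, and -0.27 to 0.57 (SCG2), -0.0094 to 0.64 (SCG5) and -0.025 to 0.14 (VGF) between hairpins. They were -0.35 to 0.32 for SCG2 with WiDr hairpin 1 and -0.19 to 0.15 for SCG3 between the guides. The causes were not tested.

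The libraries were not paired by number, since no label says so: residual correlations of same-numbered libraries ran from -0.22 to 0.64, -0.67 to 0.13, -0.15 to 0.069 and -0.055 to 0.13 in MDA-MB-468, PANC-1, WiDr hairpins and WiDr guides, and 3, 2, 0 and 9 of 9 libraries were closest to their own number. With the replicate block the number of members called was the same in every comparison other than the PANC-1 arms against control, where none is given, SCG2 with MDA-MB-468 hairpin 2 gave -0.032, and genes called were 35 for hairpin 2 against hairpin 1 in MDA-MB-468, 5 for labelled hairpin 2 against hairpin 1 in PANC-1, and 2943 and 3254 for the PANC-1 arms against control. In the WiDr guides, where 9 of 9 libraries were closest to their own number, the block raised the genes called. They numbered 6699 with guide 1, 4548 with guide 2 and 5753 between the guides, in place of 6100, 3731 and 5040. In all other experiments genes called fell with the block, and the cause was not tested. Low counts limit SCG3, PCSK1 and SCG2 outside PANC-1, where 1 library decided several calls.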
